A study of Triticum aestivum with 8 samples.

Results

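Across the wheat array, 70 of 61179 probe sets read far higher in leaves of the cultivar WL711 than in leaves of the cultivar C306, whether the plants were watered or not. These 70 were chosen by their measured values: the lowest of the 4 WL711 arrays had to exceed the highest of the 4 C306 arrays by at least 3 on the log2 scale, an 8-fold step. That is 0.114% of the probe sets, and the same rule turned round, with C306 far above WL711, was met by 81, or 0.132%. Because the rule used the gap between the cultivars, that gap is described below and not tested. What the rule did not use is the difference between watered and unwatered plants within a cultivar, and that was tested.

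Bread wheat (Triticum aestivum) leaves were profiled on 8 one-colour Affymetrix arrays, 2 biological replicates for each of 4 groups: WL711 control, WL711 drought, C306 control and C306 drought. Control plants were watered regularly and drought plants received no water from day 27 of age. All samples were labelled as 48 days old, so the drought plants had gone 21 days without water. By reputation C306 tolerates drought and WL711 does not, and no transgene or other treatment is given in the labels. The labels do not say whether plants were pooled for a sample. Each group held 2 arrays, which limits the precision of every value. The p-values set a difference against the spread between replicates, pooled over the 4 groups and drawn toward that of all probe sets. They speak for these samples only.

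A probe set is a group of short oligonucleotides designed against one wheat sequence, and its value rises with the amount of matching transcript and with how well the transcript matches the probes. Bread wheat is a hexaploid whose related subgenomes carry near-identical copies of most genes, and cultivars differ in which copies they carry, in how strongly they express them and in their sequence. The array measures the sum of what binds, so an amount of transcript and a match to the probes cannot be told apart here. In a bulk leaf sample, fewer cells of a type and less RNA per cell cannot be told apart either. In Affymetrix's naming, identifiers that share a number after Ta or TaAffx come from one sequence cluster. The suffix _x_at marks probe sets with probes that can cross-hybridise, _s_at those shared by several transcripts, and _a_at those shared by transcripts of one gene.

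The deposited values were centred on each probe set's median over the 8 arrays, so a positive value means above that median and no value gives a transcript level. For a probe set with all WL711 arrays above all C306 arrays, the lowest WL711 value and the highest C306 value therefore lie at equal distances above and below 0. Genes were assigned to 6 of the 70 probe sets, or 8.57%, against 2.08% of all probe sets. The 6 stood for 4 genes, each listed by number without a descriptive name or a synonym, so no function can be given for them. The other 64 carried no gene in the annotation used and are given by their identifiers. Markers of leaf tissue could not be checked as levels, because centring removed them.

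LOC780634 stood out with the largest gap, and all of its 3 probe sets on the array met the rule. On TaAffx.120063.1.S1_at the values were 3.59 and 4.24 in WL711 control, 3.98 and 3.88 in WL711 drought, -3.94 and -3.59 in C306 control, and -4.26 and -4.43 in C306 drought (centred log2, replicates 1 and 2). Its gap of 7.17 was the one gap above 7 among the 70. On TaAffx.92706.1.A1_at, from another sequence cluster, WL711 read 3.27 and 3.77 under control and 3.50 and 3.47 under drought, and C306 read -4.03 and -3.64, then -3.27 and -3.45. On TaAffx.120063.2.S1_s_at WL711 read 3.16 and 3.86 under control and 3.67 and 3.55 under drought, and C306 read -3.16 and -3.58, then -3.55 and -3.21. The 3 probe sets thus gave one picture from 2 sequence clusters, with mean differences between the cultivars of 7.97, 7.10 and 6.94. Another sequence of the second cluster, TaAffx.92706.2.S1_at, carried no gene name and was higher in WL711 by 2.06.

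LOC100037541 had a gap of 6.53 on one probe set and none on its other. Ta.30640.1.S1_at read 3.41 and 3.55 in WL711 control, 3.27 and 3.43 in WL711 drought, -3.27 and -5.33 in C306 control, and -4.59 and -5.04 in C306 drought. The WL711 arrays lay close together and the C306 arrays spread over 2.06. Ta.30640.1.A1_at, whose name differs in the letter that marks the orientation of the design, read -0.05 and 0.74 in WL711 control, 0.05 and 0.17 in WL711 drought, 0.12 and -0.37 in C306 control, and -0.15 and -0.20 in C306 drought. On that probe set the cultivars overlapped, and their means differed by 0.38.

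The other annotated genes had 1 probe set each. LOC543103, on Ta.142.1.S1_at, read 2.71 and 2.98 in WL711 control, 2.82 and 2.88 in WL711 drought, -2.71 and -2.72 in C306 control, and -2.91 and -3.10 in C306 drought, a gap of 5.41. LOC780641, on Ta.3583.1.A1_at, read 2.68 and 3.76 in WL711 control, 3.78 and 3.90 in WL711 drought, -2.68 and -2.89 in C306 control, and -2.68 and -3.02 in C306 drought, a gap of 5.35. For LOC780641 the first WL711 control array sat apart, below the other WL711 arrays by over 1, and the 2 arrays numbered 1 of C306 held one identical value.

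Among the 8 largest gaps, 4 belonged to probe sets without a gene. Ta.24954.1.S1_at read 3.31 and 3.23 in WL711 control and 3.70 and 3.73 in WL711 drought, against -3.23 and -3.38, then -3.36 and -3.55, in C306. TaAffx.27775.1.S1_at read 3.37 and 3.53, then 3.43 and 3.19, in WL711, against -3.38 and -3.31, then -3.59 and -3.19, in C306. TaAffx.104814.1.S1_at, with a gap of 5.95, lay between 2.98 and 3.56 in WL711 and between -3.49 and -2.98 in C306. TaAffx.58902.1.S1_x_at, with a gap of 5.66, lay between 2.83 and 3.27 in WL711 and between -3.44 and -2.83 in C306. In each of these 4 the arrays of a cultivar were packed within less than 1 log2 unit, far less than the distance between the cultivars.

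**Figure D1:**
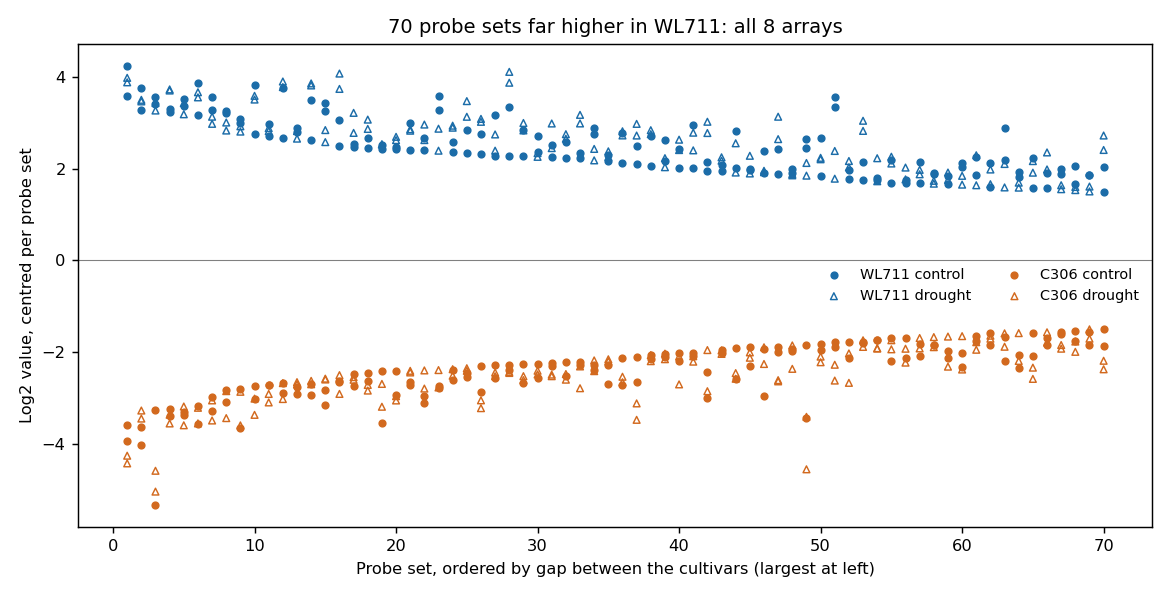
Centred log2 values of the 70 probe sets on all 8 arrays, ordered along the horizontal axis from the largest gap (7.17) to the smallest (3.003). Each point is 1 array, with colour for the cultivar and filled circles for control and open triangles for drought. The WL711 points all lie above 1.5 and the C306 points all lie below -1.5.

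Over the 70, the gap ran from 3.003 to 7.17 with a median of 4.29, and 41 had a gap of at least 4, 16 of at least 5 and 6 of at least 6. The difference between cultivar means ran from 3.36 to 7.97 with a median of 4.97. Over all 61179 probe sets the median absolute difference between cultivar means was 0.217, and it was under 1 for 95.3%. The 81 probe sets far higher in C306 had a median gap of 3.61 and a largest gap of 8.50. Gaps passed the edge of the rule without a break. Just inside lay Ta.25891.1.S1_at at 3.06, TaAffx.54406.1.S1_at at 3.01 and Ta.11519.1.A1_x_at at 3.003. Just outside lay TaAffx.105530.1.S1_at at 2.95, Ta.2733.1.A1_at at 2.91 and Ta.30781.1.S1_at at 2.87.

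The identifiers of the 70 were spread over 66 sequence clusters. In 4 clusters 2 probe sets met the rule, and in 3 of these the pair differed only in suffix and so shared a design sequence. Such a pair cannot be taken as 2 separate transcripts, though probe sets of one design sequence did not always read alike. Probe sets named Ta made up 50 of the 70, or 71.4%, against 51.4% of the array. Those with A in the orientation field made up 21, or 30.0%, against 17.4%. Of the suffixes, plain _at made up 56 (80.0%, against 79.2% of the array), _x_at 9 (12.9%, against 11.1%), _s_at 3 and _a_at 2.

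Most other probe sets of these clusters differed less between the cultivars. They are by definition those that did not meet the rule, so smaller differences in that direction are partly set by the choice. Of the 66 clusters, 22 held such probe sets, 40 in all. In 31 of the 40, or 77.5%, the cultivar means differed by less than 1, against 95.3% of all probe sets. In 8 WL711 was higher by at least 1, and in 1 C306 was. Their median difference was 0.24, with WL711 higher. WL711 arrays lay wholly above C306 arrays for 16 of the 40 and wholly below for 6, so the cultivars did not overlap in 22, or 55.0%. Over all probe sets, WL711 lay wholly above in 13.2% and wholly below in 10.2%, or 23.4% together.

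Within the Ta.2434 cluster the cultivars were opposed. Ta.2434.3.A1_at read 2.63 and 3.50 in WL711 control, 3.81 and 3.86 in WL711 drought, -2.94 and -2.70 in C306 control, and -2.63 and -2.70 in C306 drought. Ta.2434.1.A1_at read -2.28 and -2.86 in WL711 control, -3.29 and -2.37 in WL711 drought, 2.28 and 2.45 in C306 control, and 2.61 and 2.62 in C306 drought. The first was far higher in every WL711 array and the second in every C306 array, with mean differences of 6.19 and -5.19. Ta.2434.1.A1_at was the 1 cluster partner of the 40 that met the rule turned round. Its _x_at version, Ta.2434.1.A1_x_at, read from -1.16 to -0.13 in WL711 and from 0.13 to 0.35 in C306, a mean difference of -0.75.

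Probe sets built on one design sequence did not always read alike. In the Ta.951 cluster, Ta.951.2.A1_at had a mean difference of 5.12, Ta.951.2.A1_x_at of 0.90 and Ta.951.2.A1_a_at of -0.56. TaAffx.56282.1.S1_s_at had a mean difference of 4.80 and its plain partner TaAffx.56282.1.S1_at one of 0.11. Ta.6984.1.A1_at had 3.67 and Ta.6984.1.A1_s_at 0.06. In other pairs the second probe set pointed the same way: Ta.9188.2.S1_at had 4.63 and Ta.9188.2.S1_x_at 3.07, and Ta.5278.1.S1_x_at had 3.81 and Ta.5278.1.S1_at 2.73. TaAffx.616.2.S1_s_at had 4.03 and TaAffx.616.2.S1_x_at 1.23. In the Ta.8883 cluster both probe sets of one sequence met the rule, Ta.8883.2.S1_at and Ta.8883.2.S1_x_at, while both of another, Ta.8883.1.S1_at and Ta.8883.1.S1_x_at, read lower in WL711, by -0.93 and -0.94. Of 7 partners outside the rule, 4 differed by less than 1 between cultivars and 3 were higher in WL711 by at least 1.

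**Figure D2:**
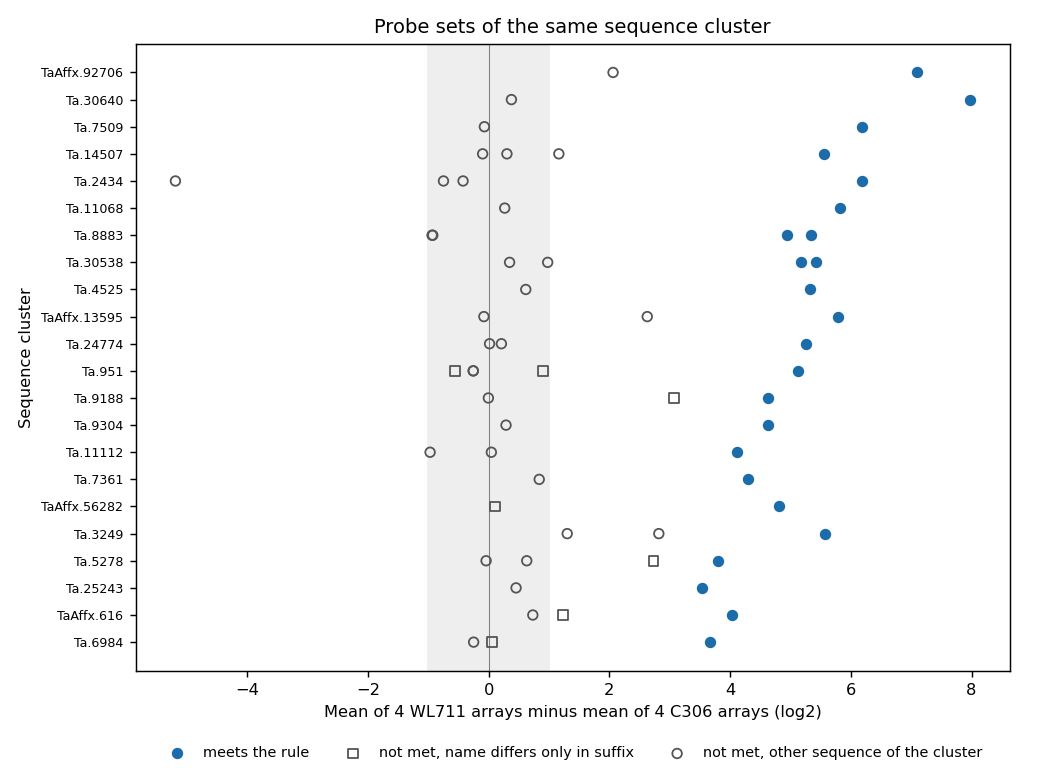
Mean of the 4 WL711 arrays minus mean of the 4 C306 arrays (log2, horizontal axis) for the 22 sequence clusters (vertical axis) that hold probe sets outside the rule. Filled points meet the rule, open squares are partners whose name differs only in suffix, open circles are other sequences of the cluster, and the grey band spans differences under 1. Most open symbols, 31 of 40, lie in the band, and 1 of Ta.2434 lies at -5.19.

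Within each cultivar the 70 probe sets spread less than the gap between the cultivars. The range over the 4 WL711 arrays had a median of 0.606, against 0.462 over all probe sets, and the range over the 4 C306 arrays a median of 0.413, against 0.338. The range was wider in WL711 for 45 of the 70, or 64.3%, and for 64.1% of all probe sets. The narrowest in WL711 were Ta.28489.1.A1_at at 0.11 and Ta.28780.1.S1_at at 0.13. The widest were TaAffx.13595.3.S1_at at 1.83 and Ta.14725.1.S1_at at 1.78. In C306 the narrowest were TaAffx.16946.1.S1_at at 0.09 and Ta.10345.1.S1_at at 0.12, and the widest were Ta.3249.3.A1_at at 2.71 and Ta.30640.1.S1_at at 2.06.

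One array set the lower edge in WL711 for most of the probe sets. WL711 control replicate 1 was the lowest WL711 array for 42 of the 70, or 60.0%, against 32.5% of all probe sets. It lay below the mean of its cultivar for 54 of the 70, with a median deviation of -0.22. Such deviations were not taken over all probe sets, so they cannot be read as particular to the 70. The medians of the other WL711 arrays were 0.11 for control replicate 2, and 0.05 and 0.03 for drought replicates 1 and 2. That array also had the widest interquartile range of the 8, 0.482 against 0.221 to 0.302. It was also 1 of 3 arrays, beside 1 of each C306 group, on which the hybridisation controls averaged under -0.5; on this array their mean was -0.72. The part of these array differences in the values was not tested. Without WL711 control replicate 1, 78 probe sets met the rule on the remaining 7 arrays. By the form of the rule, leaving out an array can only keep or raise the count.

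**Figure D3:**
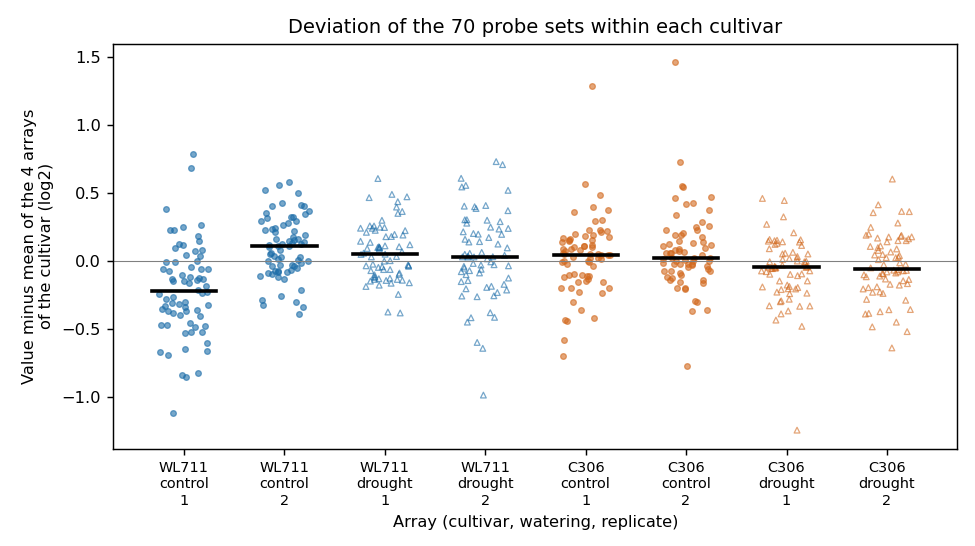
Value of each of the 70 probe sets minus the mean of the 4 arrays of its cultivar (log2, vertical axis) on each array (horizontal axis). Points are probe sets and black bars are medians. The bar of WL711 control replicate 1 lies at -0.22, and the other 7 lie between -0.06 and 0.11.

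The next question was whether withholding water moved these probe sets in WL711. None of the 70 passed the test, a limma fit over all arrays and all 61179 probe sets with Benjamini-Hochberg adjusted p under 0.05, and 0.036% of all probe sets did. The smallest adjusted p among the 70 was 0.107. At an unadjusted p under 0.05 there were 22 of the 70, or 31.4%, against 13.8% of all probe sets. The median log2 difference of drought from control was 0.098 over the 70 and -0.018 over all probe sets, and the median absolute difference was 0.278 against 0.188. Both drought arrays lay above both control arrays for 24 of the 70, or 34.3%, against 21% of all, and both lay below for 17, or 24.3%, against 22.4%.

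The strongest of these differences, by moderated t, went in both directions. Ta.14725.1.S1_at read 3.56 and 3.35 in WL711 control and 2.39 and 1.78 in WL711 drought, a log2 difference of -1.37 (SE 0.22, limma adjusted p = 0.107). The drought arrays lay below the control arrays, and both stayed well above the highest C306 value of -1.78. Ta.29640.1.S1_x_at read 3.28 and 3.59 in control and 2.87 and 2.39 in drought, a difference of -0.81 (SE 0.21, limma adjusted p = 0.205). On the upper side, Ta.11519.1.A1_at read 1.74 and 2.14 in control and 3.04 and 2.82 in drought, a difference of 0.99 (SE 0.17, limma adjusted p = 0.118). Ta.27671.1.A1_at read 2.50 and 3.05 in control and 3.74 and 4.07 in drought, a difference of 1.13 (SE 0.23, limma adjusted p = 0.147). In all 4 the WL711 groups did not overlap. Across the alternatives, these 4 had adjusted p-values between 0.0550 and 0.555.

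The largest estimate on the upper side in WL711 was that of TaAffx.13595.3.S1_at, which read 2.28 and 3.34 in control and 3.87 and 4.11 in drought, a difference of 1.18 (SE 0.29, limma adjusted p = 0.193). It passed without WL711 control replicate 2, with a difference of 1.71 (limma adjusted p = 0.0456), where the 1 control array left was the low replicate 1 and was assumed to vary like the other groups. Without WL711 control replicate 1 the difference was 0.65 (limma adjusted p = 0.388), and with each WL711 array left out in turn its adjusted p reached 0.535. The other probe sets of its cluster, picked out after their values were seen, stood on the same side. TaAffx.13595.1.S1_at read 0.33 and 0.56 in WL711 drought, above both control arrays, of which the higher read -0.52, a difference of 1.21 (SE 0.23, limma adjusted p = 0.134). TaAffx.13595.2.S1_at read 0.55 and 2.202, then 2.58 and 2.72, a difference of 1.27 (SE 0.42, limma adjusted p = 0.270). On all 3 the first WL711 control array was the lowest of the 4. In C306 their differences were -0.11, -0.45 and 0.04. Between the cultivars TaAffx.13595.1.S1_at overlapped, with a mean difference of -0.08, while TaAffx.13595.2.S1_at was higher in WL711 by 2.63.

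WL711 control replicate 1 bore on the direction of the WL711 drought comparison. With it, 42 of the 70 drought differences were above 0, and without it 33 were, against 47.4% and 48.2% of all probe sets. The median of the 70 went from 0.098 to -0.036, and the count at an unadjusted p under 0.05 went from 22 to 14, against 9.89% of all probe sets. Without WL711 control replicate 2 the median was 0.236, and 29 of the 70 had an unadjusted p under 0.05, against 22.4% of all. A shared upward or downward drought difference of the 70 in WL711 is therefore not shown.

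In C306, where these probe sets read low, none of the 70 passed either, while 0.049% of all probe sets did. At an unadjusted p under 0.05 there were 10 of the 70, or 14.3%, against 7.73% of all (limma). That excess depended on the processing. With arrays shifted to the same median there were 11, against 7.66% of all. After quantile normalization once more there were 4, against 8.68%. The median difference was -0.061, against -0.019 over all probe sets. Drought arrays lay wholly above control arrays for 7 of the 70, or 10%, against 17.2%, and wholly below for 19, or 27.1%, against 21.5%. The poly-A controls, which are added to the RNA before labelling, had means of 0.49 and 0.43 in watered C306 against -0.048 and -0.044 in unwatered C306. They thus parted the same groups, and watering and that technical difference cannot be told apart in C306.

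By moderated t, the lowest C306 differences were those of Ta.4077.3.S1_a_at and TaAffx.56282.1.S1_s_at. Ta.4077.3.S1_a_at read -2.64 and -2.11 in C306 control and -3.12 and -3.48 in C306 drought, a difference of -0.92 (SE 0.23, limma adjusted p = 0.286). TaAffx.56282.1.S1_s_at read -1.88 and -1.99, then -2.61 and -2.64, a difference of -0.69 (SE 0.22, limma adjusted p = 0.434). In both, the drought arrays lay below the control arrays. The highest were TaAffx.92706.1.A1_at of LOC780634 at 0.47 (SE 0.21, limma adjusted p = 0.640) and Ta.11068.1.A1_at at 0.40 (SE 0.17, limma adjusted p = 0.638). The other LOC780634 probe sets read -0.58 and -0.01, so the gene had no common direction under drought in C306. Across the alternatives, the smallest adjusted p-value of any of these 4 was 0.164.

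The largest estimate in C306 was that of Ta.3249.3.A1_at, which read -3.43 and -1.85 in control and -4.55 and -3.41 in drought, a difference of -1.35 (SE 0.49, limma adjusted p = 0.522). Its replicates stood over 1 apart in both groups, and drought replicate 2 lay just above control replicate 1, so the groups overlapped. With 1 C306 array left out in turn the difference ran from -2.14 to -0.56. Ta.30640.1.S1_at of LOC100037541 read -0.52 in C306 (SE 0.53, limma adjusted p = 0.996). Without C306 control replicate 2, which held its lowest value of -5.33, the difference was -1.55 and passed (limma adjusted p = 0.0369). Without C306 control replicate 1 the difference was 0.52 (limma adjusted p = 0.99986), so its direction turned on which control array was kept. In both settings the lone control array was assumed to vary like the other groups. Without C306 control replicate 2, 421 of all probe sets passed, against 30 on the full set of arrays.

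**Figure D4:**
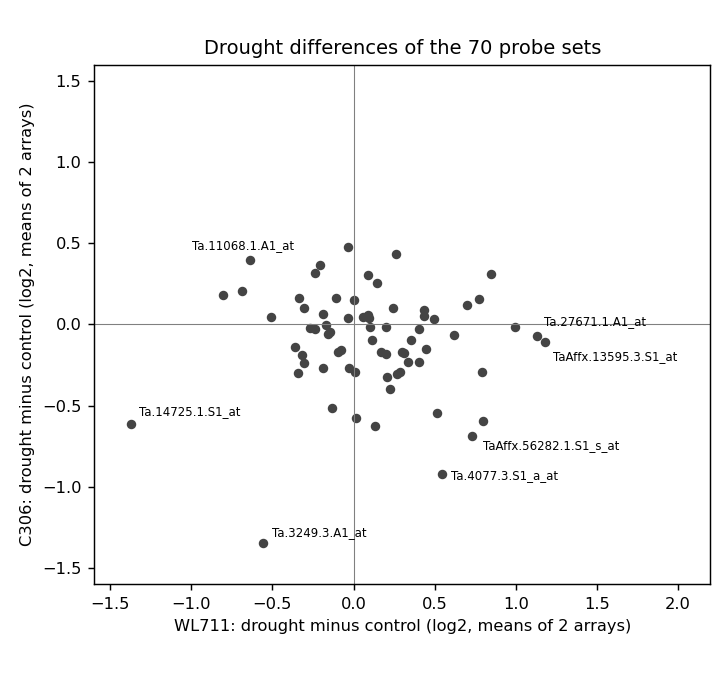
Difference of drought from control for the 70 probe sets, in WL711 (horizontal axis) and in C306 (vertical axis), each the mean of 2 drought arrays minus the mean of 2 control arrays (log2). Each point is a probe set. Estimates run from -1.37 to 1.18 in WL711 and from -1.35 to 0.47 in C306, and none passed the test.

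Drought differences were small beside the gap between the cultivars, which the rule set at 3 or more. Taking the larger of a probe set's 2 drought estimates, its share of the gap had a median of 0.0766 and a maximum of 0.384, as ratios of log2 values. In 49 of the 70 both estimates were under 0.5 in size, and the share over all probe sets was not counted. The median absolute drought difference was larger in the 70 than over all probe sets. It was 0.278 against 0.188 in WL711 and 0.170 against 0.128 in C306. An estimate of at least 1 in size was seen for 3 in WL711 and 1 in C306, against 1.39% and 1.86% of all probe sets. The rule itself holds back large drought differences that would close the gap. It also selects large gaps, so neither the sizes nor the ratios are independent of it.

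The cultivars' drought differences were then tested against each other. None of the 70 passed, against 0.0409% of all probe sets, and 14 of the 70, or 20.0%, had an unadjusted p under 0.05, against 9.79% (limma). The median of C306 minus WL711 was -0.22 over the 70, and -0.036 without WL711 control replicate 1. The most negative differences by moderated t were those of TaAffx.56282.1.S1_s_at at -1.42 (SE 0.32, limma adjusted p = 0.195) and Ta.4077.3.S1_a_at at -1.47 (SE 0.33, limma adjusted p = 0.196). TaAffx.56282.1.S1_s_at read 1.88 and 2.44 in WL711 control and 2.64 and 3.13 in WL711 drought, so its drought arrays lay above control in WL711 and below control in C306. Ta.4077.3.S1_a_at read 2.11 and 2.50, then 2.72 and 2.98, in WL711, and was split the same way. TaAffx.56282.1.S1_at, the plain partner of TaAffx.56282.1.S1_s_at, did not repeat its split, with drought differences of -0.14 in WL711 and -0.01 in C306. The most positive were Ta.11068.1.A1_at at 1.03 (SE 0.24, limma adjusted p = 0.214) and Ta.29640.1.S1_x_at at 0.99 (SE 0.30, limma adjusted p = 0.320). Ta.11068.1.A1_at read 3.25 and 3.44 in WL711 control and 2.84 and 2.58 in WL711 drought, against -2.82 and -3.15, then -2.58 and -2.60, in C306. The 4 drought arrays of Ta.11068.1.A1_at thus lay nearer to each other across the cultivars than its control arrays did. Its cluster partner Ta.11068.2.A1_at had drought differences of -0.03 in WL711 and 0.08 in C306. Across the alternatives, the 2 most negative and 2 most positive probe sets had adjusted p-values between 0.0872 and 0.703.

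A split of that kind, with no overlap of drought and control in either cultivar and opposite directions, was seen in 9 of the 70, or 12.9%, against 7.57% of all probe sets. In 8 of them WL711 drought lay above control and C306 drought below, a widening of the cultivar difference. Over all probe sets, 4.35% had that pattern. In each of these 8, WL711 control replicate 1 was the lowest WL711 array. In C306 their split fell between the same groups as that of the poly-A controls. The part of either in the pattern was not tested. Ta.3531.1.S1_at read 2.22 and 2.35 in WL711 control and 3.17 and 2.99 in WL711 drought, against -2.29 and -2.22, then -2.31 and -2.79, in C306. Ta.11179.1.A1_at read 2.31 and 2.76, then 3.02 and 3.08, in WL711, against -2.87 and -2.31, then -3.05 and -3.22, in C306. Their drought differences were 0.79 and 0.52 in WL711 and -0.29 and -0.55 in C306. Ta.11519.1.A1_x_at, with 0.80 and -0.59, shares its design sequence with Ta.11519.1.A1_at, whose C306 arrays did not split in this way. Adjusted p of the 9 differences between cultivars ran from 0.195 to 0.560 (limma). The cultivar difference was larger under drought than under control in 44 of the 70 and smaller in 26, with medians of 5.22 and 4.77. The cultivar difference, as WL711 minus C306, is smaller under drought where the C306 drought difference exceeds that of WL711. That held in 26 of the 70 and in 51.5% of all probe sets. Without WL711 control replicate 1 it held in 33 of the 70 and in 49.9% of all.

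The average of both cultivars' drought differences, which has all 8 arrays behind it, gave no call among the 70 either, against 0.00817% of all probe sets. At an unadjusted p under 0.05 there were 10 of the 70, or 14.3%, against 11.1% of all (limma). By moderated t, the lowest was Ta.14725.1.S1_at at -0.99 (SE 0.16, limma adjusted p = 0.173). Its C306 values were -1.78 and -1.88 under control and -2.62 and -2.28 under drought, so both cultivars read lower without water. TaAffx.84706.1.S1_at stood at -0.32 (SE 0.10, limma adjusted p = 0.335), with 1.996 and 1.87, then 1.64 and 1.55, in WL711 and -1.55 and -1.62, then -1.93 and -1.85, in C306. The highest by moderated t were Ta.11519.1.A1_at at 0.49 and Ta.27671.1.A1_at at 0.53 (limma adjusted p = 0.283 and 0.330), though Ta.6645.1.A1_at had the largest estimate at 0.58 (SE 0.21, limma adjusted p = 0.385). For Ta.11519.1.A1_at and Ta.27671.1.A1_at the C306 differences were -0.02 and -0.07. Across the alternatives, these 4 had adjusted p-values between 0.0793 and 0.768.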

How the data were processed

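The deposited table holds log2 values: RMA is named in the submitters' processing notes, no version being given in the sources used here, and the authors' values have a median of 0 in every probe set (largest absolute row median 5e-07), so they were centred after RMA. The log base rests on that note. Of 61290 probe sets, 111 controls (AFFX) were left out; 64 of the 61179 kept are named RPTR and none met the rule. Genes came from the platform annotation (1273 probe sets, 771 genes) and the RefSeq gene table of wheat, which held the 4 genes named by number. limma 3.58.1 in R 4.3.3 fitted 4 group means to all 8 arrays, with eBayes without trend (4 residual and 4.63 prior degrees of freedom). On simulated WL711 drought data, with 61179 probe sets, it recovered 26.0% of log2 changes of 1 and 92.7% of changes of 2. The simulated data also held changes of 3 and 4. The adjusted cut depends on how many probe sets change, and that number was not matched to the real data. These rates are for simulated probe sets and not for the members. The members had a median SE in WL711 of 0.208, against 0.179 over all probe sets. How often such changes would be recovered among the members was not tested. Members, lists and tests were chosen with earlier results of these data known. Named probe sets were those with a gene, the 8 largest gaps, 3 on each side of the threshold, the 2 highest and lowest by moderated t per drought comparison, and the 2 widest and narrowest ranges per cultivar; any other was picked after its values had been seen. Of 10 gene lists set as text patterns, 5 matched an annotated name and none held a member. No member carried a descriptive name or a synonym, so no pattern could have matched one. The lists therefore cannot say whether the members include such genes. Alternatives were other normalizations, models, probe sets and arrays left out.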

Additional observations from a re-analysis of the deposited data

How the results depend on the processing

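The count of 70 was 127 with a gap of at least 2, 41 with a gap of at least 4 and 115 with a difference of cultivar means of at least 3, changes that follow from the rule itself. It was 68 with arrays shifted to the same median, 92 after quantile normalization once more, 56 without the suffixes _x_at, _s_at and _a_at, and 70 to 78 with 1 array left out. Leaving out probe sets can only keep or lower the count, and leaving out an array can only keep or raise it. The count of members past the threshold was 0 in every drought comparison and alternative except 2, each leaving out 1 array: it ran from 0 to 1 in WL711 (TaAffx.13595.3.S1_at, without control replicate 2) and from 0 to 1 in C306 (Ta.30640.1.S1_at, without control replicate 2). Under a replicate block it stayed at 0 in all 4 comparisons, and over all probe sets 81 passed in WL711, against 22 without the block. Over 61179 probe sets, deviations of same-numbered arrays correlated at -0.093 to 0.112 in the 6 pairs of groups, the highest between WL711 drought and C306 drought, and at 0.012 and 0.020 between control and drought of WL711 and of C306. Not every pair was over 0.1 and the labels give no shared batch, so the numbers were not taken as pairs. A block for the 3 arrays of low hybridisation controls, added after seeing the data, also gave 0. The median drought difference in WL711 ran from -0.036 to 0.236 and turned negative after quantile normalization once more (-0.005) and without control replicate 1; the cause was not tested. In C306 it ran from -0.102 to -0.036. Counts at an unadjusted p under 0.05 (limma) fell after quantile normalization once more. They were then 11 of the 70 in WL711, against 10.1% of all, and 4 in C306, against 8.68%. For the cultivars' drought differences against each other the count was 12, against 9.19%, and for their average 4, against 9.48%. With 1 array of the same cultivar left out in turn, drought estimates changed sign at least once for 19 of the 70 in WL711 and 36 in C306. The shares over all probe sets were not counted, so these counts cannot be read as particular to the 70. The 2 highest and 2 lowest by moderated t in each comparison kept their sign under the alternatives run. All probe sets past the threshold ran from 0 to 81 in WL711 and from 0 to 421 in C306. Having 2 arrays a group and centred values limits what can be seen.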

Other observations

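The array also carries named wheat genes whose patterns were searched for beside these probe sets. The gene rbcl, the large subunit of the carbon-fixing enzyme Rubisco, with 28 probe sets, had cultivar differences (WL711 minus C306) from -0.16 to 1.43 with a median of 0.28, and none met the rule. The dehydrin and LEA list, with 4 probe sets, ran from -0.06 to 0.13. The inhibitor list, which took in 3 serpin probe sets, ran from 0.16 to 0.59. The defence list, a thionin gene and PR5 with 3 probe sets, ran from 0.09 to 0.21, and the detoxification list, a peroxidase gene with 2, from -0.25 to 0.03. The lists of seed storage proteins, transcription factors, kinases and phosphatases, ribosomal proteins and translation factors, and tubulins and histones matched no name. Only names in the annotation used were searched, and 2.08% of probe sets carried a gene there. An empty list therefore does not mean that the array lacks such genes.

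Ta.3249.3.A1_at had cluster partners with drought estimates below 0 in both cultivars, picked out after their values were seen. Ta.3249.1.S1_at stood at -0.49 in WL711 and -0.39 in C306, and Ta.3249.2.S1_x_at at -0.77 and -0.48. Adjusted p ran from 0.256 to 0.991 (limma).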
